A study of Mus musculus with 4 samples.

Results

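Cells take up glucose through membrane transporters and break it down to pyruvate by glycolysis, and 10 genes of this route were followed across an induced pluripotent stem cell (iPSC) clone and its nuclear transfer derivatives. They were chosen by name, with earlier results of these data known: the transporter gene Slc2a1, the hexokinases Hk1 and Hk2, the phosphofructokinases Pfkp, Pfkl and Pfkm, then Tpi1, Pgk1, Ldha and Pdk1. All probe sets that the platform annotation pairs with 1 of these genes and no other were taken, which gave 24 probe sets of 45037, for 10 genes of 18193. A further probe set that lists Hk1 together with ribosomal protein gene copies was left out. Pluripotent stem cells of the mouse are known for a high rate of glycolysis, which supplies energy and building blocks for fast division. Hexokinase traps glucose in the cell, phosphofructokinase is the main control point of the route, and both come as several isoforms encoded by separate genes. Ldha turns pyruvate into lactate, while Pdk1 phosphorylates and inhibits pyruvate dehydrogenase and so keeps pyruvate out of the mitochondria.

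Messenger RNA was measured on 4 Affymetrix mouse arrays, 1 per cell line. The first held the clone Adeno-1, reprogrammed from fibroblasts of the tail tip by adenoviral vectors. The others held NT-1, NT-2 and NT-3, embryonic stem cell lines derived from cloned blastocysts after nuclear transfer with that clone as donor, called NT-ESC lines 1 to 3 here. All 4 cultures were kept in medium with 15% FBS (serum) and LIF over a layer of irradiated MEFs (embryonic fibroblasts), and these feeder cells were depleted by preplating for 45 minutes before RNA was taken. The clone is a single clone, the lines are called subclones in the labels with no word on separate derivations, no strain is named, and each line has 1 array, so the spread given below is that between 3 arrays. In RNA from whole cultures, fewer cells of a type and less RNA per cell cannot be told apart.

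Levels are log2 intensities with the mean of each array set to an assumed 7; with a mean of 6 every log2 difference is 14.3% smaller, and at 7.86, where the brightest probe set reaches the scanner limit, 12.3% greater. The deposited values have 3 decimals, so a single step of the last digit is 0.0055 at level 8 and 0.0090 at level 13. Probe sets with a mean at or above the median of all, 6.83, are called bright, and 23 of the 24 are. Probe sets of a gene are numbered from the brightest. How bright a probe set is depends on its probes as well as on the RNA, so levels of different probe sets are given side by side and not ranked.

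The windows before the genes' start sites are shown for Slc2a1, Hk2 and Pfkp, with log2 differences, lines minus clone, of 0.24, 0.34 and 0.51 by their brightest probe sets, and for Pgk1 and Ldha, with differences of 0.11 and 0.01 by theirs. Slc2a1, Hk2, Pgk1 and Ldha are textbook targets of the hypoxia-inducible factor HIF. Each runs from 250 bases before to 50 bases after a start, 5′ to 3′ on the gene's strand, from RefSeq on GRCm38.p6. Capitals mark ACGTG or GCGTG, the core of the HIF binding site, on either strand.
Slc2a1, chr4:119108495-119108794, plus strand: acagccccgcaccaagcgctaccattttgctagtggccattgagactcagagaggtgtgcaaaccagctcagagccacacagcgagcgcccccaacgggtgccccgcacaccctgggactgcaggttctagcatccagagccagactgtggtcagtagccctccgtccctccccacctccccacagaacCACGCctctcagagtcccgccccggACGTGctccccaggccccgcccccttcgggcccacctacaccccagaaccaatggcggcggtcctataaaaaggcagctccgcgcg
Hk2, chr6:82774405-82774704, minus strand: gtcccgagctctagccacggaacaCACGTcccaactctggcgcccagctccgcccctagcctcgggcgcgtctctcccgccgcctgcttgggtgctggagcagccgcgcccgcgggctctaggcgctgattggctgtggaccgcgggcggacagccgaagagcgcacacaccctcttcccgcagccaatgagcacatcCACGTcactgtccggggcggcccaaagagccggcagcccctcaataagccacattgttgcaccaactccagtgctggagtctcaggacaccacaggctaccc
Pfkp, chr13:6648722-6649021, minus strand: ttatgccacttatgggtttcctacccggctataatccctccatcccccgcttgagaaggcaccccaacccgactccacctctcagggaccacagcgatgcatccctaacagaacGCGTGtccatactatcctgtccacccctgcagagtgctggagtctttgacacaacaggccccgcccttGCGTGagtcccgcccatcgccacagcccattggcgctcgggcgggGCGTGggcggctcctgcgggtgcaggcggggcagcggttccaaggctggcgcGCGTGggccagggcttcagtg
Pgk1, chrX:106186850-106187149, plus strand: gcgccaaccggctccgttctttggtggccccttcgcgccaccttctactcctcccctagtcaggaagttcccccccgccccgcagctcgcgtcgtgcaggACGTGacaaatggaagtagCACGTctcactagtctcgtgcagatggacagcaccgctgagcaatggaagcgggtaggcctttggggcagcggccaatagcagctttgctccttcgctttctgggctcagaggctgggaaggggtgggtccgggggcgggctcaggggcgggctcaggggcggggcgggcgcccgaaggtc
Ldha, chr7:46845554-46845853, plus strand: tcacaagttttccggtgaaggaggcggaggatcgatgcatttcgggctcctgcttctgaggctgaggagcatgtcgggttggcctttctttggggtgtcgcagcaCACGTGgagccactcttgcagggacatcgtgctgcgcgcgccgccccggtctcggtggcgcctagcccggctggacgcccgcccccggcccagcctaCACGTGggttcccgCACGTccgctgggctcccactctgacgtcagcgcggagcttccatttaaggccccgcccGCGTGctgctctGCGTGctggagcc

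The table of start windows held 16 windows for the 10 genes, because several have more than 1 start. The windows are not independent: those of Pfkm at chr15:98108221-98108520 and chr15:98108306-98108605 overlap and share a match. Of these, 12 (75.0%) carried either motif, beside 14380 of 32851 windows of all genes (43.8%), and 7 carried ACGTG, beside 19.6% of all. The window shown for Ldha held 7 matches, of which 5 were ACGTG; it contains CACGTG, the palindromic E-box bound by Myc and Max, at 2 places, and each of these is counted on both strands. Pfkp held 4 matches, all GCGTG, and Slc2a1, Hk2 and Pgk1 held 2 each. No match was found for Tpi1. Of the 2 windows of Hk1, 1 held 5 matches and the other 0. A match describes letters in the window and not a bound site.

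Because the 10 genes and the lists below were chosen with earlier results of these data known, the counts that follow are descriptive and do not test the set. The brightest probe set of each of the 10 genes exceeded at least 87.7% of all probe sets, and none of the 24 put the clone above all 3 lines. The clone was lowest for 16 of the 24 probe sets and highest for 0; over all probe sets it was lowest for 23.8% and highest for 27.5%, over bright ones lowest for 29.3% and highest for 22.1%, and among the 17 of these probe sets above level 10 it was lowest for 12 and highest for 0, where 34.0% and 18.8% of all probe sets above that level were. For 1 of the 16, Pfkl probe set 1, the gap was a single step of the deposited decimals. The median log2 difference, lines minus clone, was 0.12 over the 24 probe sets, and 22 differences were above 0; over all probe sets the median was -0.0077 and over bright ones 0.012. No probe set of these genes passed limma's test across all probe sets (smallest Benjamini-Hochberg adjusted p = 0.849), and neither did any other probe set on the array (0%). At an unadjusted p under 0.05, 8 of the 24, from 5 genes, were higher in the lines and 0 lower, where 3.44% of all probe sets were higher and 2.36% lower, and 4.71% and 1.32% of bright ones. That count of 8 was 4 when the deposited values were fitted as given and 4 without line 2. In those fits 1319 and 1051 of all probe sets were higher, against 1548 in the fit reported.

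**Figure D1:**
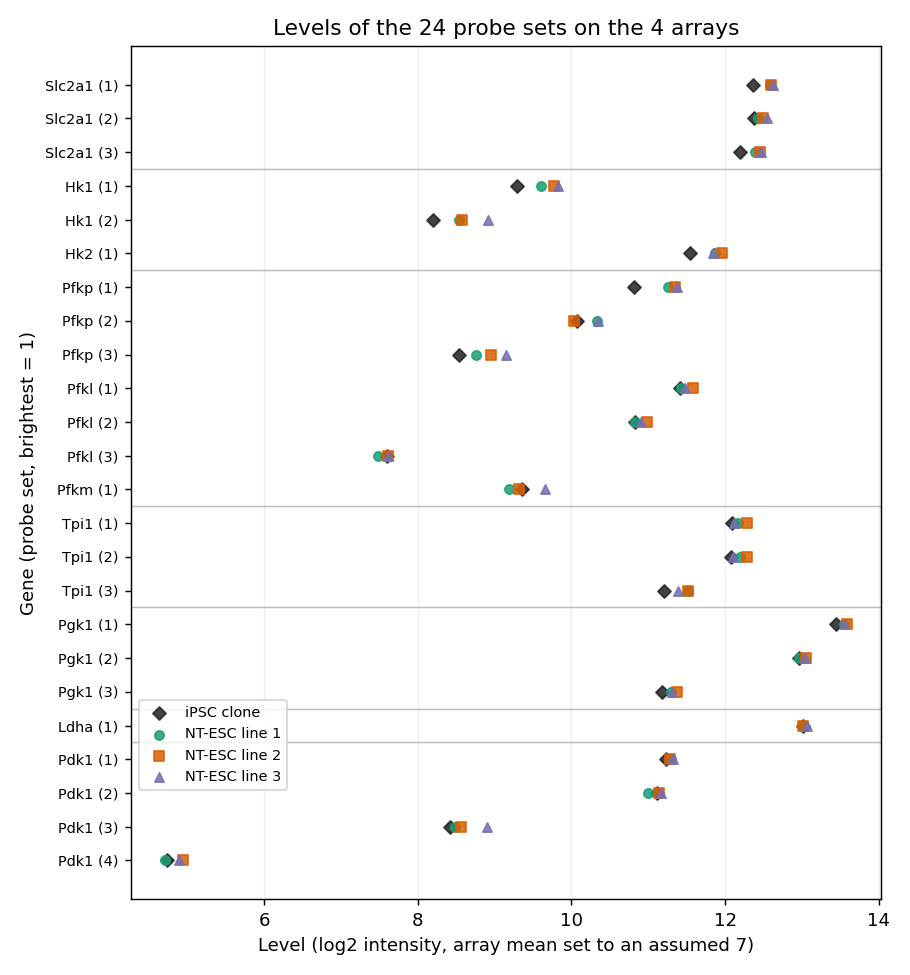
Level of each of the 24 probe sets (rows, grouped by step of the route from uptake at the top) on the 4 arrays, in log2 intensity with the array mean set to 7; diamonds mark the iPSC clone and the other symbols the 3 NT-ESC lines, 1 array each. The clone lies to the left of all 3 lines in 16 rows, with the clearest gaps for Hk1, Hk2 and Pfkp probe set 1.

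Glucose enters through the transporter GLUT1, the product of Slc2a1, and all 3 of its probe sets were lowest in the clone. Probe set 1 read 12.37 for the clone and 12.58, 12.60 and 12.63 for lines 1 to 3. Probe set 3 read 12.19 for the clone and 12.39, 12.45 and 12.47 for the lines. The lines lay close together and apart from the clone, with a difference of 0.24 ± 0.08 (SE) for probe set 1 and 0.25 ± 0.08 for probe set 3 (limma, Benjamini-Hochberg adjusted p = 0.849 for both). Probe set 2, at 12.37 in the clone and 12.43, 12.49 and 12.54 in the lines, showed a smaller difference of 0.11 ± 0.09, with a 95% interval from -0.11 to 0.32. Their mean levels ranked above 99.3%, 99.2% and 99.2% of all probe sets.

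For hexokinase, the entry enzyme, the clone lay below all 3 lines by each probe set of both isoforms. Hk1, the broadly expressed isoform, read 9.29 for the clone and 9.60, 9.77 and 9.82 for the lines by probe set 1. Its probe set 2 gave 8.20 in the clone and 8.54, 8.58 and 8.91 in the lines. Line 3 was highest by both, and the differences were 0.44 ± 0.11 (SE) and 0.48 ± 0.16 (limma, Benjamini-Hochberg adjusted p = 0.849 for both). Hk2, the isoform best known for binding mitochondria in growing cells and for its induction by HIF, read 11.55 for the clone and 11.87, 11.95 and 11.84 for the lines. Its difference was 0.34 ± 0.09 (limma, Benjamini-Hochberg adjusted p = 0.849; 95% interval 0.12 to 0.56), and its order differed from that of Hk1, with line 3 the lowest of the lines. Both isoforms were measured well inside the bright range: Hk2 was brighter than 98.5% of all probe sets, and the Hk1 probe sets were brighter than 89.8% and 79.1%.

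Phosphofructokinase was measured for 3 isoform genes, and for Pfkp the clone lay below all lines by 2 of 3 probe sets. Pfkp, the platelet type, read 10.81 for the clone and 11.25, 11.35 and 11.37 for the lines by probe set 1, which gave the largest difference of the 24, 0.51 ± 0.09 (SE; limma, unadjusted p = 0.00135, Benjamini-Hochberg adjusted p = 0.849; 95% interval 0.29 to 0.73). The gap from the clone to the nearest line was 0.44, while the lines spanned 0.12. Probe set 3 of Pfkp read 8.53 for the clone and 8.76, 8.95 and 9.15 for the lines, again with no overlap. Probe set 2 did not share this order: it stood at 10.07 in the clone, at 10.33 and 10.35 in lines 1 and 3, and at 10.03 in line 2, below the clone. The probe sets of Pfkp therefore disagree on line 2, and the difference by probe set 2 was 0.16 ± 0.14.

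Pfkl, the liver type, read 11.41 for the clone and 11.42, 11.58 and 11.47 for the lines by probe set 1. By probe set 2 it read 10.83 for the clone and 10.83, 10.98 and 10.91 for the lines. The differences were 0.08 ± 0.10 (SE) and 0.07 ± 0.09, with 95% intervals from -0.16 to 0.32 and from -0.16 to 0.30. Probe set 3, the dimmest of Pfkl, differed by -0.03 ± 0.10. Pfkm, the muscle type, read 9.36 for the clone and 9.19, 9.32 and 9.65 for the lines; line 3 was above the clone and lines 1 and 2 below it, and the difference, 0.03 ± 0.18, was -0.10 without line 3. All 3 isoform genes had a bright probe set: the brightest of Pfkl, Pfkp and Pfkm exceeded 97.9%, 97.3% and 87.7% of all probe sets. Whether Pfkp differed more than Pfkl was not tested, and the values stand side by side.

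**Figure D2:**
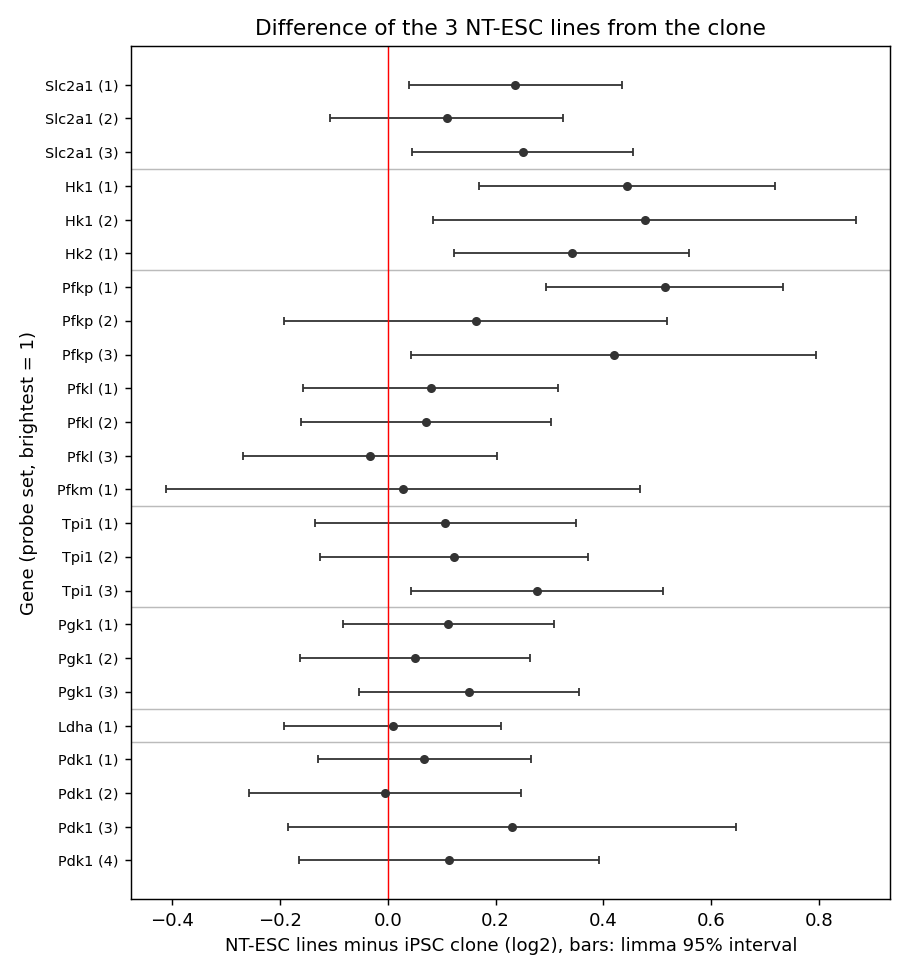
Difference of the mean of the 3 NT-ESC lines from the iPSC clone for each probe set (log2, points), with limma's 95% interval (bars); the red line is 0. Intervals for Hk1, Hk2, Pfkp probe sets 1 and 3, Slc2a1 probe sets 1 and 3 and Tpi1 probe set 3 lie above 0 before adjustment, while those of Pfkl, Pfkm, Pgk1, Ldha and Pdk1 include it.

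Triose phosphate isomerase, encoded by Tpi1, interconverts the products of aldolase, and its 3 probe sets were all lowest in the clone. Probe set 3 read 11.20 for the clone and 11.52, 11.52 and 11.39 for the lines, a difference of 0.28 ± 0.09 (SE; limma, Benjamini-Hochberg adjusted p = 0.849). Probe sets 1 and 2 differed by 0.11 ± 0.10 and 0.12 ± 0.10; line 3 stood only 0.03 above the clone by each. As for Hk2, line 3 was the line closest to the clone by every probe set. Probe set 2 is of a kind whose probes can bind similar sequences elsewhere.

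Phosphoglycerate kinase, encoded by the X-linked Pgk1, makes the first ATP of the route. By the brightest probe set, which is brighter than 99.8% of all, it read 13.45 for the clone and 13.55, 13.58 and 13.55 for the lines. The lines did not overlap with the clone, and the difference was 0.11 ± 0.08 (SE). Probe set 3 read 11.18 for the clone and 11.30, 11.37 and 11.31 for the lines, a difference of 0.15 ± 0.08. Both of these share the probe design open to similar sequences, and genes such as Pgk1 are known to have processed copies in the genome. Probe set 2, which does not have that design, put line 1 at 12.95, a step below the clone at 12.96, and lines 2 and 3 at 13.05 and 13.04, so that the arrays overlapped and the difference was 0.05 ± 0.09.

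At the fates of pyruvate, Ldha, the A subunit of lactate dehydrogenase, read 13.02 for the clone and 13.01, 13.01 and 13.06 for the lines. The clone lay inside the range of the lines; the difference was 0.01 ± 0.08 (SE), with a 95% interval from -0.19 to 0.21, and its sign turned to -0.016 after the median of probe sets of like level was taken off. Pdk1 was measured by 4 probe sets. Probe set 1 read 11.23 for the clone and 11.29, 11.28 and 11.32 for the lines, and probe set 2 at 11.11 in the clone and at 10.99, 11.15 and 11.17. The clone was lowest by the former and between the lines by the latter, with differences of 0.07 ± 0.08 and -0.0049 ± 0.10. Probe set 3 read 8.42 for the clone and 8.48, 8.56 and 8.90 for the lines, so that its difference of 0.23 ± 0.17 came largely from line 3. Probe set 4 was the 1 probe set of the 24 below the median level, at 4.72 to 4.94 on the arrays.

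Set against the clone one by one, line 3 was above it for 24 of 24 probe sets, line 2 for 21 and line 1 for 17; among all probe sets these shares were 46.9%, 47.9% and 47.0%, and among bright ones 50.8%, 53.8% and 54.9%. The median difference over the 24 was 0.16 in line 3, 0.18 in line 2 and 0.094 in line 1. Line 1 alone had the lowest level of the 3 lines for 16 of the 24 probe sets and tied for the lowest in 2 more. At least 0.32 above the clone on the log2 scale were 4 probe sets in line 1, 6 in line 2 and 5 in line 3, where 2.97%, 2.61% and 4.39% of all probe sets and 3.71%, 3.23% and 6.25% of bright ones were; 0 were lower by that much in any line, where 1.80%, 1.92% and 2.81% of all probe sets and 0.924%, 1.64% and 2.83% of bright ones were. Only Pfkp probe set 1 and Hk1 probe set 2 passed that limit in every line, as did 0.491% of all probe sets and 0.644% of bright ones; with a mean of 6 this count is 1 and at 7.86 it is 4. The lines share the clone array as their reference, so their counts are not independent. None of the 10 genes lies on chromosome 8, whose 1740 probe sets had a median difference of 0.17 between line 3 and the clone.

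**Figure D3:**
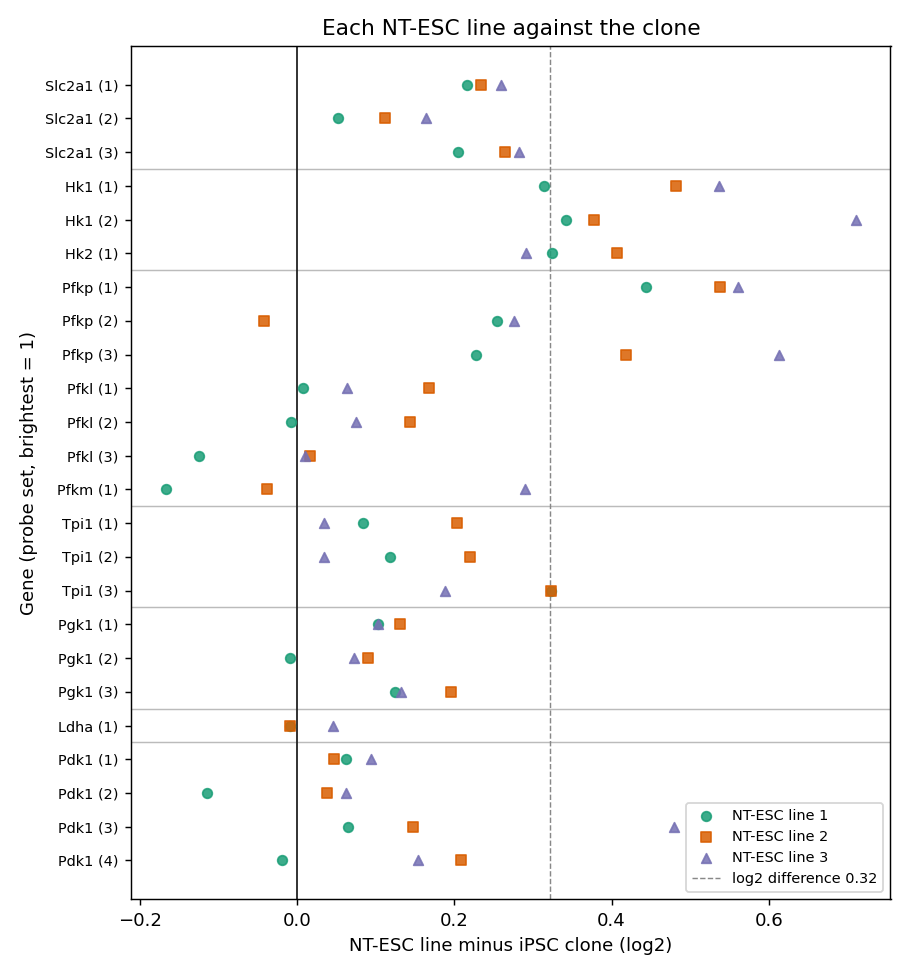
Difference of each NT-ESC line from the iPSC clone for the 24 probe sets (log2, 1 array each, no error bar); the solid line is the clone and the dashed line a log2 difference of 0.32. Line 3 (triangles) is right of the clone in all rows, and line 1 (circles) is nearest to or left of it in most, with the widest spread between lines for Pfkm, Hk1 probe set 2, Pfkp probe set 3 and Pdk1 probe set 3.

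Other enzymes of the route were taken as a list. Of 22 enzymes listed, 17 had a probe set of their own, 38 in all. The clone was lowest for 16 (42.1%) and highest for 6 (15.8%) of these, where 23.8% and 27.5% of all probe sets were. Among bright probe sets, which 30 of the 38 are, the shares were 29.3% and 22.1%. The median difference was 0.083. With only the brightest probe set of each of the 17 genes, the median was 0.014. The clone was then lowest for 7 and highest for 3, and the share of all genes was not computed. At an unadjusted p under 0.05, 6 (15.8%) were higher and 0 lower, where 3.44% and 2.36% of all probe sets were; none passed the adjusted test. Of those 6, 4 were Aldoa probe sets of the design open to similar sequences. Aldoa, the main aldolase, read 12.96 for the clone and 13.20, 13.25 and 13.20 for the lines by its brightest probe set, and Aldoc, with the largest difference of the list, at 9.10 and at 9.49, 9.54 and 9.38. The lines did not overlap with the clone by either of these probe sets, with differences of 0.25 ± 0.08 (SE) and 0.37 ± 0.10. A dim further probe set of Aldoc differed by -0.028 ± 0.12, with the clone inside the range of the lines. Pfkfb3, whose product makes the activator of phosphofructokinase, read 7.30 for the clone and 7.72, 7.66 and 7.62 for the lines, while Pfkfb2 of the same family had the lowest difference of the list, -0.16 ± 0.09. Pkm, pyruvate kinase, read 13.28 for the clone and 13.27, 13.30 and 13.26 for the lines, a difference of -0.0031 ± 0.08. Pgam1 differed by 0.083 ± 0.09. Ldhb, the B subunit of lactate dehydrogenase, differed by 0.083 ± 0.24 by its brightest probe set, with line 2 highest at 11.23. Differences by its other probe sets ran from 0.20 to 0.36. Gapdh was read from the array's control probe sets alone: its 3′ set read 13.75 for the clone and 13.80, 13.83 and 13.78 for the lines.

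Other transporters were taken as a list too. Of 21 probe sets for 13 genes of glucose and lactate transport the clone was lowest for 3 (14.3%) and highest for 2 (9.52%), where 23.8% and 27.5% of all probe sets were. Among bright probe sets, which 12 of the 21 are, the shares were 29.3% and 22.1%. The median difference was 0.018. By limma, 0 of the 21 were higher and 0 lower at an unadjusted p under 0.05, beside 3.44% and 2.36% of all probe sets. Slc2a3, the neuronal type transporter GLUT3, read 13.31 for the clone and 13.27, 13.60 and 13.51 for the lines, with line 1 below the clone. Slc16a3, a lactate exporter, read 10.18 for the clone and 10.04, 10.26 and 10.36 for the lines. Slc2a5, the fructose transporter, had the lowest difference of the list, -0.13 ± 0.09 (SE), and a further Slc2a3 probe set the highest, 0.22 ± 0.17.

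At the entry of pyruvate to the mitochondria, the clone was lowest for 12 of 25 probe sets (48.0%) and highest for 3 (12.0%), where 23.8% and 27.5% of all were. Among bright probe sets, which 20 of the 25 are, the shares were 29.3% and 22.1%. The median difference was 0.039. By limma, 0 of the 25 were higher and 0 lower at an unadjusted p under 0.05, beside 3.44% and 2.36% of all probe sets. Pdha1, the catalytic subunit of pyruvate dehydrogenase, read 11.37 for the clone and 11.51, 11.54 and 11.43 for the lines by its brightest probe set. Its other probe set read 10.63 for the clone and 10.77, 10.53 and 10.65 for the lines, with line 2 below the clone. Pdk3, another kinase of that enzyme, read 9.93 for the clone and 9.95, 9.96 and 9.99 for the lines. Mpc1, a subunit of the pyruvate carrier, had the highest difference, 0.37 ± 0.22 (SE), most of it from line 3 at 10.26. A dim probe set of Dlat had the lowest, -0.25 ± 0.14, while the bright ones of Dlat gave 0.03 ± 0.09 and -0.056 ± 0.08. In the pentose phosphate pathway, which branches off after hexokinase, the clone was lowest for 3 of 13 probe sets (23.1%, beside 23.8% of all and 29.3% of bright ones). It was highest for 1 (7.69%, beside 27.5% and 22.1%). Of the 13, 11 were bright, and the median was 0.087. Here too, by limma, 0 were higher and 0 lower at an unadjusted p under 0.05. A pair of Rpe probe sets held both ends of the list, at 0.27 ± 0.13 and, for a dim one, -0.11 ± 0.10.

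Regulators of the route gave a median of 0.017 over 26 probe sets, of which 23 were bright. The clone was lowest for 8 (30.8%, beside 23.8% of all probe sets and 29.3% of bright ones). It was highest for 4 (15.4%, beside 27.5% and 22.1%). By limma, 2 of the 26 were higher and 1 lower at an unadjusted p under 0.05, beside 3.44% and 2.36% of all probe sets. Hif1a, the oxygen-controlled subunit of HIF, read 10.59 for the clone and 10.71, 10.60 and 10.59 for the lines by its brightest probe set. Differences by its other probe sets ran from -0.24, where the clone was highest, to 0.10, where it was lowest. Egln3, a HIF prolyl hydroxylase that is itself a HIF target, read 9.31 for the clone and 9.52, 9.48 and 9.89 for the lines. Its relative Egln1, which lies on chromosome 8, had the highest difference, 0.53 ± 0.20 (SE), and a dim probe set of Hif1an the lowest, -0.37 ± 0.10. Txnip, an inhibitor of glucose uptake, read 11.63 for the clone and 11.62, 11.77 and 11.84 for the lines by its brightest probe set. By its other probe set the difference was -0.04 ± 0.11.

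Several properties of the arrays moved with the comparison, and their part in these results was not tested. Levels on the clone array had an SD of 1.95 against 1.97 to 1.98 on the others, and the median difference went from -0.033 in dim level bins to 0.038 in bright ones. After the median of probe sets of like level was taken off each, the median of the 24 was 0.11, and Pfkm joined Ldha in turning sign, at -0.0096. The gap between the 3′ and 5′ control probe sets of Actb, which widens as RNA or labelling degrades, was 0.22 for the clone and 0.28, 0.42 and 0.29 for the lines. The clone also had the smallest gap for Gapdh, -0.067 against -0.058, 0.029 and -0.038, and for Tfrc, 1.22 against 1.32, 1.34 and 1.34, but not for Pcx, 0.302 against 0.299, 0.438 and 0.322. The summed level of 10 fibroblast and feeder markers was 91.9 in the clone and 91.6, 93.2 and 92.0 in the lines; the clone was lowest for 5 of them and 1, Lum, lay under the median level. The 8 pluripotency markers were all bright and summed to 97.6 in the clone and 98.5, 98.5 and 98.3 in the lines, with the clone lowest for 5. Primitive endoderm markers summed to 39.5 in the clone and 39.3 to 40.1 in the lines, with 5 of 6 below the median level. The 6 trophectoderm markers summed to 45.2 in the clone and 45.4 to 47.4 in the lines, with Cdx2 and Elf5 below that level. Counting every marker probe set, the clone was lowest for 7 of 11 for pluripotency and highest for 0, with a median difference of 0.11. The 24 probe sets of the route had 16, 0 and 0.12. Fibroblast and feeder markers had 9 of 18, 2 and 0.11. Primitive endoderm markers had 2 of 16, 4 and -0.037, and trophectoderm markers 3 of 12, 2 and 0.12. Bright probe sets numbered 11 for pluripotency, 14 for fibroblast and feeder, 1 for primitive endoderm and 7 for trophectoderm markers. Over all probe sets the clone was lowest for 23.8% and highest for 27.5%. These shares were 29.3% and 22.1% over bright ones and 34.0% and 18.8% above level 10. A clone below all 3 lines was thus not particular to the 10 genes. Single markers differed in both directions. The keratin Krt8 read 8.39 for the clone and 9.62, 9.35 and 8.41 for the lines, a difference of 0.73, and Krt18 differed by 0.52, Eomes by 0.41 and Cdx2 by -0.31.

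**Figure D4:**
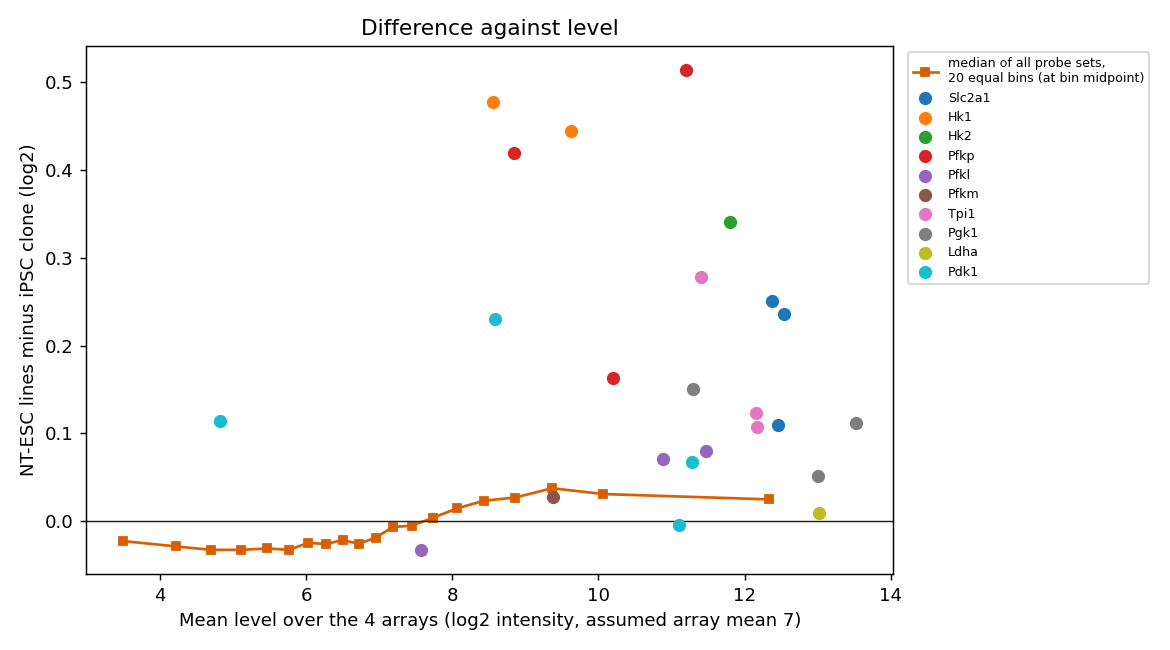
Difference between the NT-ESC lines and the iPSC clone (log2) against the mean level over the 4 arrays for the 24 probe sets, coloured by gene, with the median of all probe sets in 20 equal level bins (orange line). The orange line stays between -0.033 and 0.038, while Hk1, Hk2 and Pfkp probe sets 1 and 3 lie above 0.3 and Ldha, Pfkm and Pdk1 probe set 2 lie near the line.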

How the data were processed

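RNA of 4 cultures was turned into biotinylated cRNA and hybridised to Affymetrix arrays, per the labels' protocols. The software, background correction and normalization are not given in the sources used here. Values as deposited are on a log2 scale: by the values themselves, each is the log2 of a probe set's level over the mean level of its array, since 2 raised to the value has a mean of 1 on every array. That ratio was multiplied by an assumed mean log2 intensity of 7 to rebuild levels; design choices had assumed plain log values.

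The table held 45101 probe sets, of which 64 controls were left out of the fit. Genes were named from the platform annotation, with symbols updated through RefSeq (34741 of 34945 single-gene probe sets matched). A two-sided limma test (version 3.58.1, R 4.3.3) of the lines against the clone was fitted on all 45037 probe sets and adjusted over them by Benjamini-Hochberg, with a threshold of 0.05. The spread comes from the 3 line arrays (residual degrees of freedom 2, prior 3.79), and the clone's array is assumed to vary like them. The fit was tested on simulated data.

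Members and lists were chosen with earlier results of these data known. Named genes are the 10 members, 16 genes fixed by name, of which Gpi1, Eno1 and G6pdx have no probe set named here, and the largest difference in each direction of each list. Protein sequences were not used here. Alternatives were the assumed mean, quantile normalization, deposited values, dim probe sets, gene summaries, level bins and each line left out.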

Additional observations from a re-analysis of the deposited data

How the results depend on the processing

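No probe set passed limma's test in any of the refitted alternatives (0 in each; the level bins gave values with no test; smallest Benjamini-Hochberg adjusted p over these fits 0.71, without line 3), with 1548 higher and 1061 lower at an unadjusted p under 0.05 in the fit reported. The count of probe sets with the clone lowest was 16 of 24. It was 8 of 10 genes with the brightest probe set of each and 6 of 10 with the mean of each gene's probe sets. Fewer values are counted there, and the share of all genes was not computed for either summary. As each line was left out the count ranged from 16 to 21. Leaving out a line can only keep or raise it, and the share of all probe sets was not computed for those fits. The median difference of 0.12 was 0.017 on the deposited scale, whose unit differs, and ranged from 0.11 to 0.13 as each line was left out. The count of 8 at an unadjusted p under 0.05 was 7 with quantile normalization and 4 to 7 as each line was left out. Over all probe sets the number higher moved too. It was 1456 with quantile normalization and 929, 1051 and 1810 without lines 1, 2 and 3. Differences near 0 turned sign: Pfkm was -0.012 with quantile normalization and -0.0096 with level bins, and Ldha -0.017 and -0.016. As each line was left out, Pfkm ranged from -0.10 to 0.13, Ldha from -0.0090 to 0.018, Pfkl probe set 3 from -0.057 to 0.013 and Pdk1 probe set 2 from -0.038 to 0.050. No paired analysis was possible because the 1 clone array is the reference for all 3 lines. The number of arrays limits the precision: with 1 clone array, a trait of that culture or array cannot be told apart from a trait of the clone.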
